A study of Mus musculus with 8 samples.

Results

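Immediate early genes are the first to be transcribed when a cell receives a growth factor, a mechanical stretch or a stress signal, because the proteins that switch them on are already present and need only be phosphorylated. Most encode transcription factors, among them the Fos and Jun proteins that pair to form AP-1, and their mRNAs are short-lived, so that their level reports recent signalling as well as handling of the tissue. In the fetal lung, tracheal occlusion (TO) retains lung liquid and distends the future airspaces, a stretch to which early genes may respond. The 10 genes described were Fos, Fosb, Jun, Junb, Egr1, Egr2, Atf3, Ier2, Ier3 and Nr4a1, chosen by symbol from the 55385 genes in the deposited tables, and each symbol matched 1 gene.

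Whole lungs of 4 control and 4 TO fetuses of the C57BL/6 strain, all at E18.5, were sequenced as bulk RNA. In the TO group the trachea was tied together with one carotid artery and one jugular vein at E16.5, so the group carried a vessel ligation as well as an airway occlusion, and the effects of the 2 ligations cannot be told apart. Lungs were taken only at E18.5, so an early and brief response to the ligation was not sampled. Progesterone was given to the dams a day later, and the sources used here do not say how the control fetuses were handled or which fetuses shared a dam, so that p-values measure the spread between these lungs only. Values are read pairs per gene, given as CPM (the count scaled by library size) after correction for library composition with TMM factors, and differences are given on the log2 scale as TO against control. The study compared controls 1, 2 and 4 with TO 2, 3 and 4, and the fit of these 6 libraries is given first, followed by 7 libraries (control 3 added) and all 8.

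The libraries held 22822261 to 35002061 read pairs on genes, except TO 1 with 270078, in which 3 pairs were worth 10.3 CPM against 0.0853 to 0.131 CPM elsewhere. The lung epithelial marker Sftpc was at 4419 to 12780 CPM in the 8 libraries, and TO 1 also held thymocyte and skeletal muscle genes, which summed to 195.7 and 2342 CPM against at most 12.6 and 275.6 CPM in the others. Control 3 stood apart from the other controls for several of the genes below. Whole lung was sequenced, so fewer cells of a type and less RNA per cell cannot be told apart. Of the 10 genes 9 had at least 5 pairs in 3 or more of the 6 libraries and were tested among 21859 genes.

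Of the 10 genes, Fos, Fosb and Ier3 differed most in size between TO and control lungs or between single lungs. The 250 bases before their RefSeq start sites (GRCm38.p6) are therefore shown, 5′ to 3′ along each gene, with capitals marking letters searched for on both strands.
Fos, chr12:85473640-85473889 (plus strand): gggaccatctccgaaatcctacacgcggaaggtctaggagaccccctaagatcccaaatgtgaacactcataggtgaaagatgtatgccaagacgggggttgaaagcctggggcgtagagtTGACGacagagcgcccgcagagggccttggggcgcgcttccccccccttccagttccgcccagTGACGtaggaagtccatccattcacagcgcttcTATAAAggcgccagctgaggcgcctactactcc
Fosb, chr7:19310046-19310295 (minus strand): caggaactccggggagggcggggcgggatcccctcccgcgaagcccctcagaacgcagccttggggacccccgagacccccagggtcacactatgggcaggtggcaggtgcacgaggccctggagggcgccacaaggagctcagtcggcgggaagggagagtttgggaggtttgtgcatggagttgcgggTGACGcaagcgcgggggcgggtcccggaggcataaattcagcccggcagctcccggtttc
Ier3, chr17:35821463-35821712 (plus strand): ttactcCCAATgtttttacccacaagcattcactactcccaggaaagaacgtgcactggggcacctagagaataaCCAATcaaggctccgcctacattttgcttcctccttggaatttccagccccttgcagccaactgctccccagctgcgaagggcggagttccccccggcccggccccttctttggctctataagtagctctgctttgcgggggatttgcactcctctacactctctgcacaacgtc
The letters searched for were TGACG (the core of the cyclic AMP response element bound by CREB and ATF proteins), TATAAA (the TATA box), CCAAT (the site of the factor NF-Y), TGANTCA (the AP-1 site) and the CArG box, the binding sequence of serum response factor. No printed hit overlapped another. The Fos window held TGACG from 129 to 125 and from 66 to 62 bases before the start and TATAAA from 33 to 28 bases before it. The Fosb window held TGACG from 60 to 56 bases before the start, and the Ier3 window held CCAAT from 244 to 240 and from 175 to 171. TGACG was also found in windows of Junb, Atf3, Nr4a1 and Egr2, which with Fos and Fosb makes 6 of the 8 genes with a RefSeq promoter here. Egr2 had windows for 5 start sites, and all but the first held a CArG box. Of 32851 promoter windows of the same length 17.8% held TGACG, 12.4% TATAAA, 33.9% CCAAT, 6.75% TGANTCA and 1.47% a CArG box. These shares are per window, whereas Egr2 was counted once from its 5 windows. Sites more than 250 bases before a start were not searched, so a motif not found here may lie further away. These matches describe the letters only, and the promoters of Egr1 and Ier2 were not analysed here.

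Fos and Fosb had the largest log2 fold changes of the early genes in the 6 and 7 libraries, while in all 8 Fosb alone stood out and Fos was smaller in size than Atf3, Nr4a1 and Ier3. Fos encodes the founding AP-1 subunit, which pairs with Jun proteins and is cleared within hours of induction. Fos (ENSMUSG00000021250.13, chromosome 12, 85473890 to 85477273, plus strand) was at 4.68, 6.50, 24.4 and 5.90 CPM in controls 1 to 4 and at 6.87, 11.9, 18.3 and 9.52 CPM in TO 1 to 4. TO 2, TO 3 and TO 4 all lay above controls 1, 2 and 4, while control 3 had the highest level of all. In the 6 libraries the mean was 5.70 ± 0.927 CPM in controls and 13.2 ± 4.51 CPM in TO lungs (SD, n = 3 each). The fitted log2 fold change was 1.21 ± 0.28 (SE), with an unadjusted p of 0.0017 and an adjusted p of 0.907 by edgeR's quasi-likelihood test.

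That difference rested on which libraries and which tool were used. With control 3 added the log2 fold change of Fos was 0.35 ± 0.54, and with all 8 libraries 0.29 ± 0.50, with adjusted p-values by edgeR of 1.0 in both fits. DESeq2 on the 6 libraries gave 1.22 ± 0.30 and an adjusted p of 0.0356, so that Fos was 1 of 44 genes it called (0.201% of those tested), while the edgeR fit called 0 genes (0.00%) at the threshold of 0.1 in 6, 7 or 8 libraries. By unadjusted p under 0.05, edgeR counted 1123 genes (5.14%) in the 6 libraries, Fos and Fosb among them. DESeq2 on all 8 libraries called 7 genes (0.0310%), and Fos had an adjusted p of 1.0 there. Leaving out TO 4 from the 6 libraries brought Fos to 1.41 and an adjusted p of 0.0937 by edgeR. The 2 pairs of Fos in TO 1 allowed any level from 0.832 to 24.8 CPM (95% exact Poisson interval, counting error only), a range that spans every other library.

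**Figure D1:**
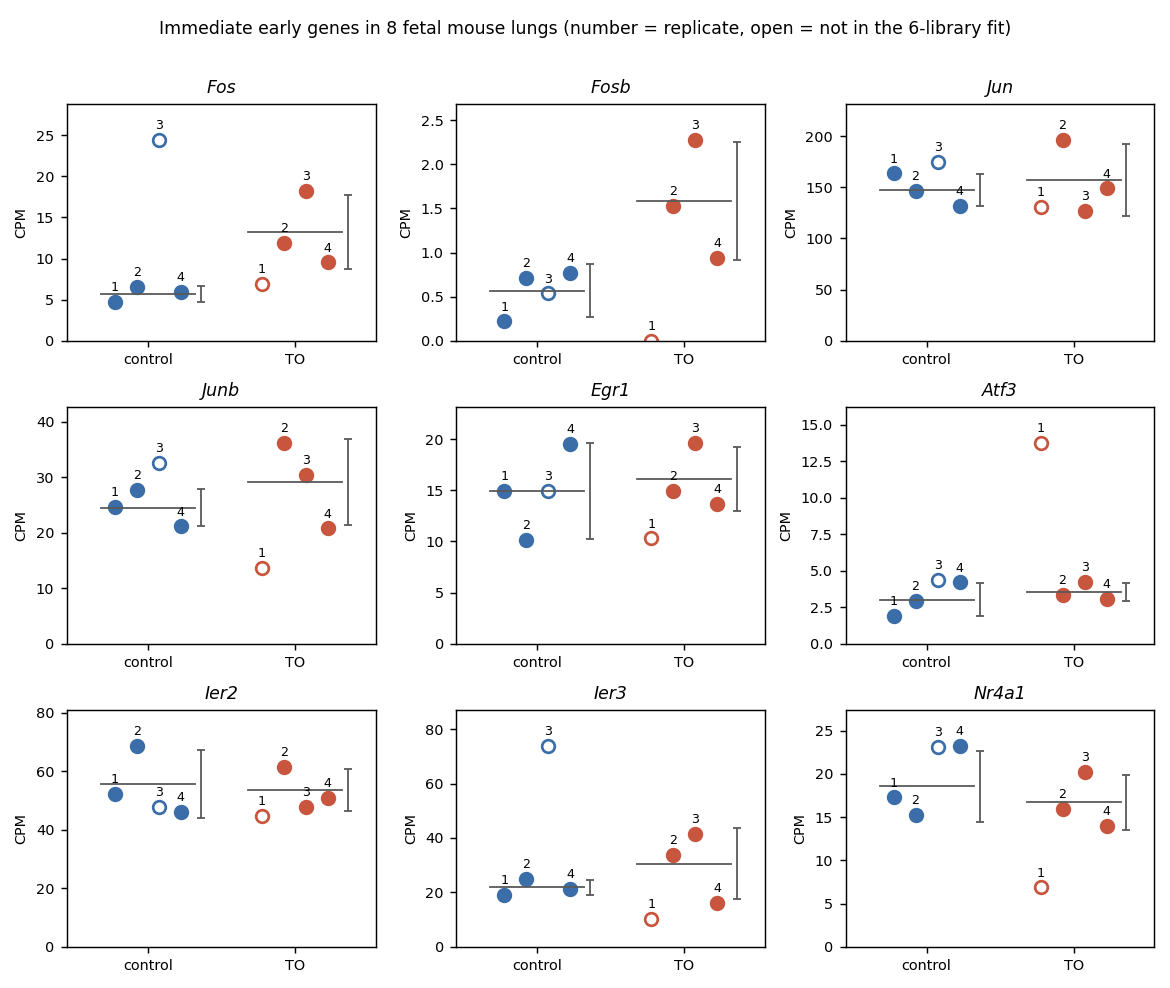
CPM of 9 early genes in each of the 4 control (blue) and 4 TO (orange) lungs, with the replicate number beside each point and open symbols for control 3 and TO 1. Lines and bars give the mean and SD of the 3 filled points in each group. Control 3 tops the control group for Fos and Ier3 (24.4 and 73.7 CPM), and Fosb is above every control in TO 2, TO 3 and TO 4.

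Fosb, a relative of Fos that also pairs with Jun proteins, was scarce. With both strands counted, it was higher in TO 2 to 4 than in every control. Fosb (ENSMUSG00000003545.3, chromosome 7, 19302696 to 19310051, minus strand) was at 0.219, 0.715, 0.537 and 0.768 CPM in controls 1 to 4, from 5 to 22 pairs each. In TO 2 to 4 it was at 1.53, 2.27 and 0.938 CPM, from 33 to 55 pairs each. All 3 deep TO lungs were above all 4 controls, control 3 included. For TO 4 this rests on 33 pairs against 19 in control 4 and 22 in control 2. On 1 strand alone, TO 4 and the shallower control 4 had 9 pairs each, so there the groups overlapped. Single-strand fits of the 6 libraries gave 1.88 ± 0.98 (unadjusted p = 0.084) and 1.195 ± 0.70 (unadjusted p = 0.118) by edgeR. TO 1 had 0 pairs, which allows up to 10.3 CPM at 3 counts and so places it nowhere. The fitted log2 fold change was 1.45 ± 0.63 in 6 libraries (unadjusted p = 0.047, adjusted p = 0.907), 1.48 ± 0.58 in 7 (unadjusted p = 0.030, adjusted p = 1.0) and 1.403 ± 0.60 in 8 (unadjusted p = 0.039, adjusted p = 1.0), all by edgeR. At an unadjusted p under 0.05 with TO higher, Fosb was joined by 1.26% of the genes tested in 7 libraries and 1.43% in 8. None of these passed the threshold of 0.1 after adjustment, and DESeq2 gave an adjusted p of 0.686 in the 6 libraries.

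Groups that do not overlap were common among all genes. In the 6 libraries 10.9% of the genes tested had no overlap between control and TO lungs, and with TO higher in 5.06% and lower in 5.82%. Of the 9 early genes tested 2 (Fos and Fosb) were separated with TO higher and 0 with TO lower. In 7 libraries Fosb alone was separated, against 2.26% of genes with TO higher. In all 8 libraries no early gene was, against 0.714%.

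The Jun genes encode the partners of Fos proteins in AP-1, and neither differed beyond the spread between lungs. Jun (ENSMUSG00000052684.4, chromosome 4, 95049034 to 95052222, minus strand) was at 163.6, 146.2, 175.2 and 132.1 CPM in controls and at 130.5, 196.0, 127.1 and 149.0 CPM in TO 1 to 4, with the groups interleaved. Its log2 fold change was 0.10 ± 0.16 in 6 libraries, 0.029 ± 0.17 in 7 and -0.016 ± 0.16 in 8. Junb (ENSMUSG00000052837.6, chromosome 8, 84974484 to 84978718, minus strand), a Jun protein that often restrains the activity of Jun, was at 24.6, 27.8, 32.6 and 21.2 CPM in controls and at 13.7, 36.1, 30.5 and 20.8 CPM in TO 1 to 4. TO 2 was the highest library for both Jun and Junb. The log2 fold change of Junb was 0.25 ± 0.21 in 6 libraries and 0.051 ± 0.24 in 8. Jun shares 232 bases with the antisense gene Junos and Junb shares 173 bases with Prdx2, and with counts that ignore strand pairs in those stretches cannot be assigned to one gene.

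Egr1 and Egr2 encode zinc finger factors that growth factor and stretch signals induce through serum response factor. Egr1 (ENSMUSG00000038418.7) was at 14.97, 10.2, 14.9 and 19.5 CPM in controls and at 10.3, 14.95, 19.6 and 13.7 CPM in TO 1 to 4, so that the groups covered the same range. Its log2 fold change was 0.11 ± 0.26 in 6 libraries and 0.063 ± 0.24 in 8. Egr2 (ENSMUSG00000037868.15, chromosome 10, 67535475 to 67542188, plus strand), which is best known from myelinating Schwann cells, had 5 pairs in TO 2 (0.145 CPM) and 0 in the other 7 libraries. It was not tested, and at 3 counts the zeros allow up to 0.131 CPM in the deep libraries.

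Atf3 encodes a stress-induced ATF protein, and Nr4a1 an orphan nuclear receptor. Atf3 (ENSMUSG00000026628.13, chromosome 1, 191170296 to 191218039, minus strand) was at 1.93, 2.93, 4.36 and 4.21 CPM in controls and at 3.35, 4.22 and 3.07 CPM in TO 2 to 4. TO 1 read 13.7 CPM, from 4 pairs whose 95% exact Poisson interval runs from 3.74 to 35.2 CPM and so touches the range of the others. The log2 fold change of Atf3 was 0.23 ± 0.36 in 6 libraries, 0.077 ± 0.35 in 7 and 0.32 ± 0.45 in 8. Nr4a1 (ENSMUSG00000023034.7, chromosome 15, 101254269 to 101274795, plus strand) was at 17.3, 15.3, 23.1 and 23.2 CPM in controls and at 6.87, 16.0, 20.2 and 14.0 CPM in TO 1 to 4. Its log2 fold change was -0.16 ± 0.21 in 6 libraries, -0.24 ± 0.21 in 7 and -0.31 ± 0.24 in 8, the lowest of the 9 in each fit.

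Ier2 and Ier3 were named for their immediate early response, Ier3 being an inhibitor of cell death under stress. Ier2 (ENSMUSG00000053560.5, chromosome 8, 84661331 to 84662852, minus strand) was at 52.2, 68.5, 47.9 and 46.0 CPM in controls and at 44.6, 61.6, 47.8 and 50.9 CPM in TO 1 to 4, with a log2 fold change of -0.056 ± 0.17. Ier3 (ENSMUSG00000003541.6, chromosome 17, 35821684 to 35822923, plus strand) was at 19.2, 24.9, 73.7 and 21.3 CPM in controls and at 10.3, 33.8, 41.6 and 16.3 CPM in TO 1 to 4. TO 2 and TO 3 were above controls 1, 2 and 4, TO 4 was below them, and control 3 was above every other library. The log2 fold change of Ier3 was 0.48 ± 0.29 in 6 libraries (unadjusted p = 0.138, adjusted p = 0.907 by edgeR), -0.19 ± 0.49 in 7 and -0.29 ± 0.46 in 8, so that its sign turned with control 3.

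**Figure D2:**
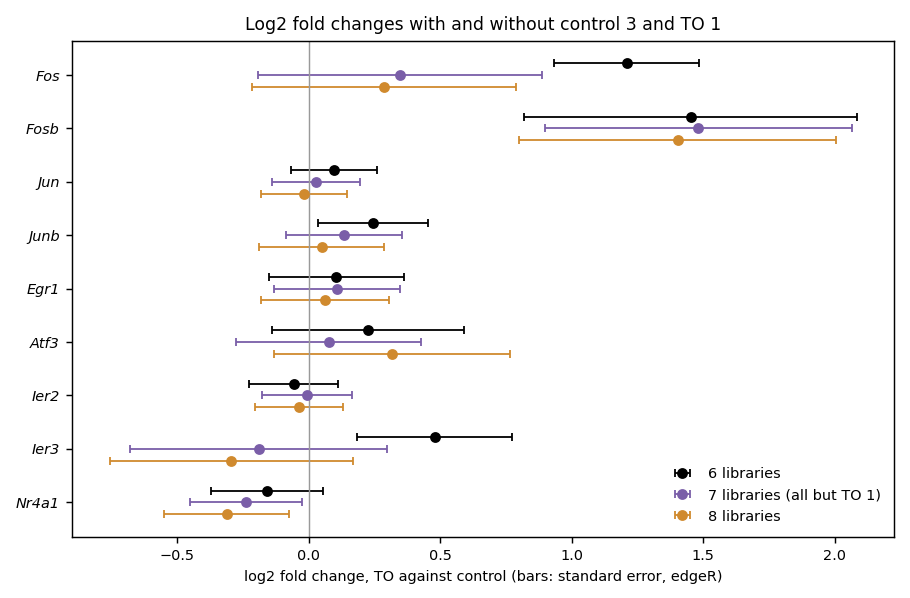
Log2 fold change of TO against control for 9 early genes in 6, 7 and 8 libraries, with bars of 1 standard error from edgeR. The bars of Fos reach 0 once control 3 is added (0.35 ± 0.54), those of Fosb stay above 0 in all 3 fits, and Ier3 changes sign from 0.48 to -0.19.

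As a group, 7 of the 9 tested early genes had a log2 fold change above 0 in the 6 libraries, against 49.3% of all genes tested, and 5 of 9 in all 8 libraries, against 46.8%. The median log2 fold change of the 9 was 0.23 in 6 libraries, 0.077 in 7 and 0.051 in 8. Adjusted p-values by edgeR ranged from 0.907 to 0.982 in the 6 libraries, so that none of the 9 was called.

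Compared per length of exonic sequence (RPKM), the order of the levels spanned a wide range. In the 7 deep libraries Jun was at 39.9 to 61.5 RPKM and Ier2 at 30.2 to 45.02, with ranges that overlap, and Ier3 at 14.4 to 65.2 overlapped both as well as the top of Junb. Junb (9.03 to 15.7) lay clear above Nr4a1 (3.99 to 6.61), which overlapped Egr1 (2.26 to 4.37) in turn. Fos (1.99 to 10.4) spread over the ranges of Nr4a1, Egr1 and Junb, and it was above Atf3 (0.894 to 2.03) in each of these libraries. Fosb (0.0351 to 0.364) was the lowest of the 9 tested.

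Library by library, the early genes did not move together as 1 block. Control 3 and TO 3 were the 2 highest of the 7 deep libraries for Fos, Ier3 and Atf3, which is 3 of 9 genes against 11.6% of all genes tested. TO 2 was the highest for Jun and Junb, TO 3 for Fosb and Egr1, control 2 for Ier2 and control 4 for Nr4a1. The mean z-score of the 9 genes over these libraries was 0.65 in control 3, 0.53 in TO 2 and 0.47 in TO 3, and between -0.66 and -0.16 in the other 4. The 5 other genes closest to this mean across the 7 libraries, of 10762 with a mean of at least 10 CPM, were Tcp11l2, Prkg2, Cp, Tbcel and Mpp7, with Pearson's r of 0.977 to 0.984, a description over 7 points in genes picked for it. Cp, the copper-binding plasma protein ceruloplasmin, was at 166.0, 148.2 and 148.7 CPM in control 3, TO 2 and TO 3 and at 55.9 to 68.6 CPM in the other deep lungs.

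Control 3 and TO 3 carry the same 4 digits, 3604, in their specimen names, controls 1 and 4 with TO 1 and TO 4 carry 3482, and control 2 and TO 2 carry 3573. The labels do not say what these digits mean. Within 3573 the log2 CPM of Fos was higher in TO by 0.87 and within 3482 by 0.85 without TO 1 (0.61 with it), while within 3604 it was lower, at -0.41. Fosb was higher in TO by 1.02, 1.02 and 1.93 within 3573, 3482 without TO 1, and 3604, whereas with TO 1 the difference within 3482 was -0.83, a value that rests on its 0 pairs. Ier3 differed by 0.44 within 3573, by -0.31 within 3482 without TO 1 and by -0.82 within 3604. Each of these compares 1 or 2 lungs with 1 or 2. With the digits as a block in edgeR, the log2 fold change over the 3 sets together was 0.47 ± 0.26 for Fos (unadjusted p = 0.093) and 1.25 ± 0.65 for Fosb (unadjusted p = 0.079) in 8 libraries. In 7 libraries, an alternative chosen after seeing the data, it was 0.48 ± 0.26 (unadjusted p = 0.096) and 1.32 ± 0.64 (unadjusted p = 0.067), with adjusted p-values of 1.0 throughout.

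Genes of the low oxygen response, which hypoxia-inducible factor switches on, were also highest in control 3. Of 12 such genes control 3 was the highest library for 11, against 20.6% of all genes tested, and control 3 and TO 3 were the 2 highest for 8. Their mean log2 CPM was 5.60, 5.56, 6.97 and 5.97 in controls 1 to 4 and 5.53, 5.72, 6.23 and 5.85 in TO 1 to 4. Bnip3, a mitophagy receptor, was at 164.3 CPM in control 3 and at 26.8 to 38.6 CPM in the other controls, and at 27.5 to 67.7 CPM in TO lungs. Slc2a1, the glucose transporter GLUT1, was at 199.0 CPM in control 3 and at 66.3 to 91.0 CPM in the other 7 libraries. In the 6 libraries 9 of the 12 had a log2 fold change above 0, with a median of 0.21 and a single gene, Bnip3, at an unadjusted p under 0.05 (0.62 ± 0.23, adjusted p = 0.907 by edgeR), and in all 8 the median was -0.25. The abundant members Ldha, Pgk1 and Kdm3a, 2 glycolytic enzymes and a histone demethylase, differed by -0.017, 0.17 and 0.070 (log2) in the 6-library fit. The part of these genes' levels in the values of Fos and Ier3 was not tested.

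**Figure D3:**
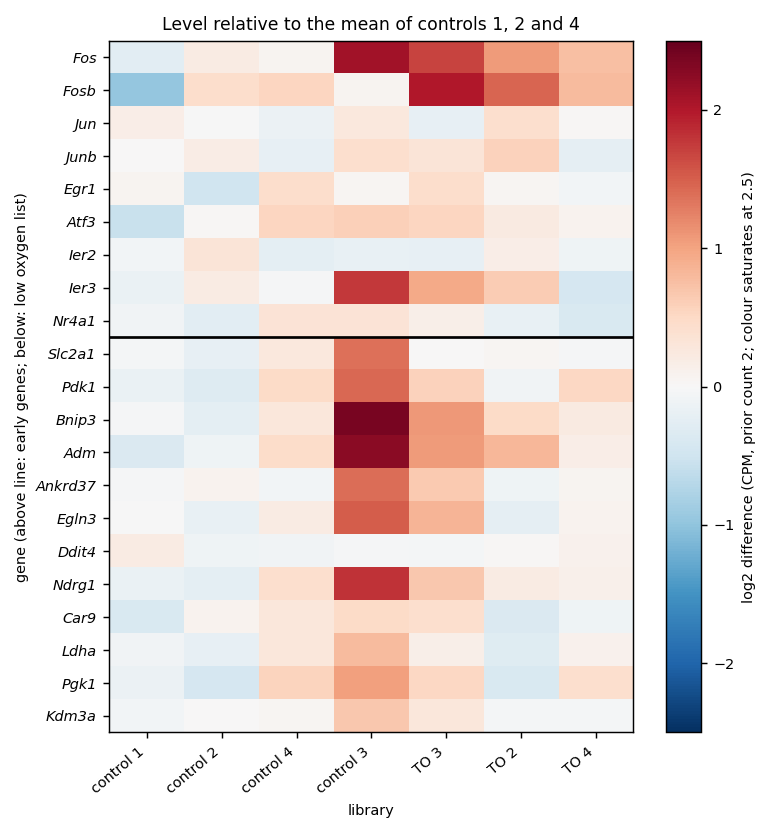
Level of 9 early genes (above the line) and 12 low oxygen genes (below) in the 7 deep libraries, as log2 CPM minus the mean of controls 1, 2 and 4, with the colour scale saturated at 2.5. Control 3 is the darkest column for Fos, Ier3 and most low oxygen genes, whereas Fosb is raised in TO 3 and TO 2 and not in control 3.

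Markers of other cells also differed between these lungs. The 3 leukocyte markers (Ptprc, Cd68 and Adgre1) summed to 21.1 to 30.1 CPM in controls and to 27.8, 55.4 and 41.4 CPM in TO 2 to 4. All 3 were above 0 on the log2 scale in the 6-library fit (median 0.82), 2 of them at an unadjusted p under 0.05. Of all genes tested, 3.07% were higher at this threshold by edgeR. Of 5 neutrophil genes 4 were tested and all 4 had fitted differences above 0, 2 of them at an unadjusted p under 0.05, with sums of 14.5 to 37.4 CPM in controls and 31.9 to 123.1 CPM in TO 2 to 4, while the defining Ly6g was at 0 in every library. DESeq2 called 1 of the 4, S100a8, among its 44 genes in the 6 libraries and 2, S100a8 and S100a9, among its 7 in all 8. The 5 genes of atrial and pulmonary vein muscle summed to 614.3 and 385.1 CPM in controls 1 and 2, to 4206 and 3279 CPM in controls 3 and 4 and to 2118 to 4135 CPM in TO 2 to 4. Medians of other marker lists in the 6-library fit were 0.029 for lung epithelium, -0.033 for endothelium and -0.10 for lung mesenchyme. They were 0.044 for erythroid cells, -0.99 for hepatocytes, 1.28 for skeletal muscle and 3.04 for thymocytes. The last 3 leaned on single lungs. Thymocyte genes, 2 of them tested, summed to 12.6 CPM in TO 3 and 0.404 to 1.92 CPM in the other libraries of this fit. Hepatocyte genes summed to 742.2 CPM in control 1, 274.1 CPM in TO 4 and 2.15 to 24.4 CPM in the others. Skeletal muscle genes summed to 12.2 CPM in control 2, 109.8 and 120.3 CPM in controls 1 and 4, and 132.9 to 275.6 CPM in TO 2 to 4. The part of the leukocyte, neutrophil and atrial muscle genes in the levels of Fos and Fosb was not tested.

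**Figure D4:**
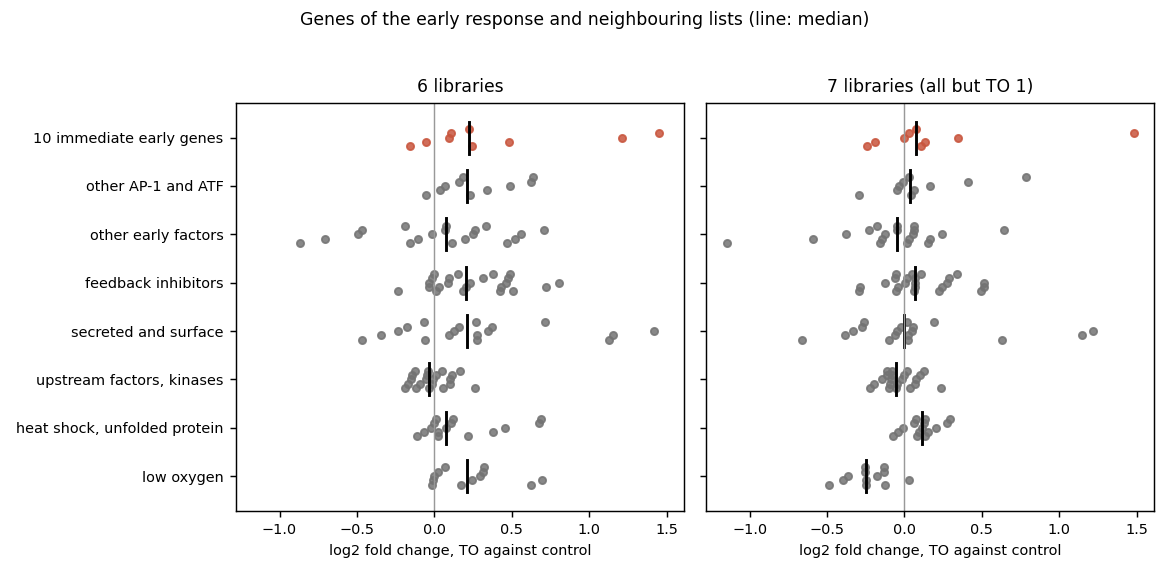
Log2 fold change of TO against control for each tested gene of 8 lists, in 6 libraries (left) and in 7 libraries with control 3 (right), with a vertical line at each median. The medians of the early gene lists lie near 0.2 in the left panel for 4 lists and closer to 0 in the right one, and that of the low oxygen genes goes from 0.21 to -0.25.

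Other AP-1 and ATF genes showed no called difference. Of 12 listed 10 were tested, 9 with a log2 fold change above 0 and 1 below in the 6 libraries, with a median of 0.21, and none had an unadjusted p under 0.05. The abundant members were Fosl2, an AP-1 subunit, at 88.4, 92.8, 206.1 and 98.5 CPM in controls and 111.9, 150.3 and 93.2 CPM in TO 2 to 4 (0.34 ± 0.16), and the stress and CRE-binding factors Atf4 (-0.057 ± 0.12) and Atf7 (0.16 ± 0.12). The list's median was -0.037 with all 8 libraries. Jund was counted at 0 in every library with both strands counted as one and at 0 to 22 pairs per strand, and the antisense gene Gm11175 covers 877 of its 1668 bases, so its level could not be read from these counts. Fosl1 was at 0 to 0.228 CPM.

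Of 20 other early response transcription factors 19 were tested, 11 above 0 and 8 below, with a median of 0.077. Mafk, a small Maf protein (0.52 ± 0.18), and Bhlhe40, a circadian repressor (0.56 ± 0.20), were higher at an unadjusted p under 0.05, and Myc, the growth-promoting factor (-0.47 ± 0.19), was lower, all with an adjusted p of 0.907 by edgeR. The antiproliferative Btg1 and Btg2 and the zinc finger factor Klf6, the most abundant, differed by 0.33 ± 0.15, 0.26 ± 0.16 and 0.25 ± 0.11. Control 3 was the highest of the 7 deep libraries for 10 of the 19, for example for Maff, another small Maf protein, at 161.6 CPM against 46.1 to 68.3 CPM in the other controls. With all 8 libraries the median was -0.10 and no gene had an unadjusted p under 0.05.

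Feedback inhibitors, which end the early response by dephosphorylating MAP kinases, degrading mRNA or blocking NF-kappaB, were above 0 for 18 of 23 genes with a median of 0.21. The 5 with an unadjusted p under 0.05 were all higher, namely the MAP kinase phosphatases Dusp1 (0.49 ± 0.19) and Dusp4 (0.72 ± 0.25), the NF-kappaB inhibitors Nfkbia (0.48 ± 0.15) and Tnfaip3 (0.81 ± 0.30), and the EGF receptor inhibitor Errfi1 (0.43 ± 0.18). That is 5 of 23 genes where 3.07% of all genes tested were higher at this threshold, and each had an adjusted p of 0.907 by edgeR. In 7 libraries none of the 23 reached an unadjusted p of 0.05 and the median was 0.069, and in 8 it was 0.0059. The most abundant were the mRNA-destabilising Zfp36l1, the kinase Sik1 and the clock repressor Per1, which differed by 0.097 ± 0.13, 0.029 ± 0.14 and 0.15 ± 0.12 in the 6 libraries.

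Among secreted and surface products of the early response 18 of 20 were tested, 12 above 0 and 6 below, with a median of 0.21 in 6 libraries and -0.073 in 8. Thbs1, a matrix protein of vessels, was at 247.2, 269.2, 330.8 and 341.2 CPM in TO 1 to 4. Every control was higher, at 381.3, 363.3, 880.2 and 360.7 CPM in controls 1 to 4. Its log2 fold change was -0.23 ± 0.12 in 6 libraries. In 8, with control 3 and the shallow TO 1, it was -0.73 (unadjusted p = 0.023, adjusted p = 1.0 by edgeR). In the 6 and 7 libraries no gene of this list was lower at an unadjusted p under 0.05. Of all genes tested in the 6 libraries, 5.82% were separated with TO lower, and this share is not given here for 8. The other abundant members were Vegfa, the main angiogenic growth factor, with a log2 fold change of 0.27 ± 0.30, and F3, tissue factor, with 0.35 ± 0.23.

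The kinases and factors that act upstream of the early genes stayed close to 0. Of 21 tested 8 were above 0 and 13 below, between -0.19 and 0.26, with a median of -0.034 and no unadjusted p under 0.05. The MAP kinase Mapk3 differed by -0.15 ± 0.15, and the kinase Rps6ka3 by 0.26 ± 0.15. Of 15 heat shock and unfolded protein genes 12 were above 0 with a median of 0.073. The small heat shock protein gene Hspb1 (0.46 ± 0.17, adjusted p = 0.907 by edgeR) was the single one with an unadjusted p under 0.05, and the abundant chaperone genes Hspa8, Hspa5 and Hsp90aa1 differed by 0.073, 0.00028 and 0.0085.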

How the data were processed

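The 8 deposited tables hold raw counts of read pairs per gene, which the authors made with STAR from 150-bp pairs of NexteraXT libraries aligned to GRCm38 (mm10 in the submitters' processing notes, which also name DESeq2). STAR's version and the annotation are not given in the sources used here. The counts of both strands together were used, since 49.9% to 50.1% of assigned pairs fell on either strand. Of 55385 gene IDs 54487 were identical to GENCODE M21 and 55144 matched without the version, Ier2 among the latter, and symbols, coordinates and exonic lengths come from it.

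Genes with at least 5 pairs in 3 or more libraries were tested with edgeR 4.0.16 in R 4.3.3 (TMM scaling, quasi-likelihood test, group alone, Benjamini-Hochberg over all genes tested, threshold 0.1), on 21859 genes in 6 libraries, 22539 in 7 and 22545 in 8. The study used the same threshold but tested with DESeq2. A standard error is the log2 fold change divided by the square root of the quasi F. CPM used the TMM factors of all 8 libraries, and log2 CPM a prior count of 2. DESeq2 1.42.0, limma-voom (limma 3.58.1), other scaling, filters, strands, blocks and each library left out were alternatives, and the steps were tested on simulated data. Figures were drawn with matplotlib 3.10.9 in Python 3.11.15.

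The members and the gene lists were chosen with earlier results of these data known. From each list the genes called and the 3 most abundant were named, together with genes at an unadjusted p under 0.05 and others (Maff, Slc2a1, Fosl1, Jund, Sftpc and the marker genes) chosen after their values were seen. Of the genes this takes in, 2 are not reported here by themselves. Mkl1 and Mkl2 are older symbols of the listed Mrtfa and Mrtfb and were not counted again. Promoter windows come from the RefSeq table of GRCm38.p6.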

Additional observations from a re-analysis of the deposited data

Results flagged for a closer look

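In 3 of 20 groups of 4 libraries the highest value was flagged as far from its neighbours. The rule was Dixon's 95% critical value of 0.829 for the ratio of the gap below that value to the whole range. Chance gives about 1 in 20. Fos in control 3 was at 24.4 CPM against 4.68 to 6.50 CPM in the other controls, a ratio of 0.907. Ier3 in control 3 was at 73.7 CPM against 19.2 to 24.9 CPM, a ratio of 0.894. Atf3 in TO 1 was at 13.7 CPM against 3.07 to 4.22 CPM in the other TO lungs, a ratio of 0.893, and rests on 4 read pairs. Egr2, with 5 pairs in TO 2 and 0 in every other library, also exceeds this critical value among the TO lungs. It was not flagged, so the count of 3 leaves it out.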

How the results depend on the processing

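The count of genes called was 0 by edgeR in the 6 libraries, with 1123 genes at an unadjusted p under 0.05. It was 44 with DESeq2, 40 when every gene with a read was tested, 219 with the replicate block in 6 libraries and 3 with it in 8, and 0 to 144 when each of the 6 libraries was left out in turn (52 without control 4 and 144 without TO 4) and 0 in every such fit from 8. Alternatives chosen after seeing the data gave 7 (DESeq2, all 8), 1 (a block by specimen digits, 7 libraries) and 5 (the replicate block, 7 libraries). Of the early genes 1, Fos, was called with DESeq2 (adjusted p = 0.0356) and without TO 4 (adjusted p = 0.0937 by edgeR), so 0 to 1 as each library was left out, and over all its alternatives the adjusted p of Fos ran from 0.0356 to 1. The median log2 fold change of the 9 was 0.16 to 0.36 with 1 of 6 libraries left out and -0.14 (without TO 2) to 0.19 (without control 3) with 1 of 8 left out, and -0.048 without control 4. The labels do not say that replicate numbers pair the lungs. Same-numbered lungs deviated together at correlations over 0.1 in 2 of 4 pairs with all 8 libraries and in each of the 3 pairs without TO 1 (0.117, 0.211 and 0.119), where control 1 correlated with TO 4, of the same specimen digits, at 0.172. With all 8, 6 of 8 libraries correlated best with their own number. The block put Fos at 0.79 (adjusted p = 0.389 by edgeR) in 6 libraries, 0.38 in 7 and 0.39 in 8, put Fosb at 0.70, 1.15 and 1.10, and changed the call of no early gene. With limma-voom, other scaling, counts of a single strand or 5 reads in every library, 0 genes were called.

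Direction turned as follows. In all 8 libraries Jun was at -0.016, with the replicate block at -0.024 and with the block by specimen digits at -0.034 (-0.0074 in 7 libraries). Junb was at -0.0098 with the digits block in 8. Ier3 was at -0.29 in 8 and -0.19 in 7, at -0.30 and -0.26 with the replicate block in 8 and 7, at -0.27 and -0.24 with the digits block in 8 and 7, and at -0.39 with DESeq2 in 8. With the replicate block in 6 libraries Atf3 was at -0.12 (-0.10 in 7) and Ier2 at 0.0010, and with counts of a single strand Atf3 was at -0.024 and Nr4a1 at 0.0011. With 1 library left out of 6 and of 8, the ranges were 0.92 to 1.41 and -0.0055 to 1.17 for Fos, 1.09 to 1.73 and 1.03 to 1.62 for Fosb, -0.090 to 0.24 and -0.18 to 0.075 for Jun, 0.061 to 0.45 and -0.16 to 0.19 for Junb, -0.10 to 0.36 and -0.10 to 0.22 for Egr1, -0.0050 to 0.54 and 0.077 to 0.51 for Atf3, -0.18 to 0.13 and -0.14 to 0.10 for Ier2, 0.21 to 0.79 and -0.59 to 0.40 for Ier3, and -0.30 to 0.038 and -0.48 to -0.21 for Nr4a1. Fosb kept its direction in all 30 alternatives, at 0.70 to 1.88. These refit the same lungs and are not independent, and the fit of 7 libraries is counted again as 8 without TO 1. The causes were not tested. Depth limits Fosb, Egr2 and every value of TO 1.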
